A study of Mus musculus with 24 samples.

Results

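Loss of caspase-2 in cardiomyocytes (CMs) was examined here on the day after birth (P1), before the main wave of CM polyploidization, by comparing RNA of sorted CM nuclei between genotypes. The comparison was chosen by its sample labels, and it holds 7 of the 24 libraries of the study: 4 libraries of XMLC2(+)Casp2(fl/fl) mice, called Casp2-depleted, and replicates 2, 3 and 4 of XMLC2(-)Casp2(fl/fl) mice, called control. Mice of both groups carry 2 loxP-flanked Casp2 alleles on a C57BL/6N background and differ in the Cre transgene, whose XMLC2 promoter drives recombination in CMs only. The control group has no Cre, so an effect of Cre itself and an effect of Casp2 loss cannot be told apart. Each P1 library was made from a pool of 15 hearts, from animals used without regard to sex, and nuclei were sorted on PCM1, a protein that coats CM nuclei. P1 control replicate 1 was excluded, a choice taken over from the study. The study found it far from the other libraries and saw signs of cytoplasmic contamination. Genes high in it were linked to mitochondria, ribosomes and translation. Its reads of such genes are therefore no plain measure of control nuclei. Values of this library, in CPM without TMM scaling, are given beside many of the results that they change.

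Caspase-2 is a protease that is activated on a platform called the PIDDosome, built from the sensor PIDD1 and the adaptor RAIDD (gene Cradd). ANKRD26 brings PIDD1 to the distal appendages of mother centrioles, and extra centrosomes, as polyploid cells carry them, switch the complex on. Active caspase-2 can cleave MDM2 and thereby stabilize p53, whose target p21 (gene Cdkn1a) arrests the cell cycle. Mouse CMs still divide around birth and become binucleated or polyploid during the first postnatal weeks, so P1 gives the state before that change.

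The 3 control libraries held 1243967, 1544100 and 1300426 reads on genes and the 4 Casp2-depleted libraries 2071202, 1228193, 1220640 and 2727103. Reads on no gene, in percent of the uniquely placed reads and called the no-gene share below, are the first sign of library quality. Of the uniquely placed reads, 73.9, 61.2 and 60.7% lay on no gene in control replicates 2, 3 and 4, and 49.8, 68.2, 70.6 and 36.8% in Casp2-depleted replicates 1 to 4. The means, 65.3% ± 7.47 (SD, n = 3) and 56.4% ± 16.02 (SD, n = 4), had a difference of -8.89 percentage points (Casp2-depleted minus control), smaller than the range within either genotype (exact permutation test, two-sided p = 0.457, where 4 against 3 libraries allow no p below 0.0571). Control replicate 2 and Casp2-depleted replicates 2 and 3 had the most reads on no gene, the fewest detected genes (10981, 11230 and 12084, against 14118 to 15268 in the other libraries) and the most dropouts. Of genes with at least 20 reads in another library of their group, 28.3, 34.3 and 29.9% had no read in these libraries, against 11.7 to 16.3% in the others. In the left-out control replicate 1 the share on no gene was 9.21%.

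**Figure D1:**
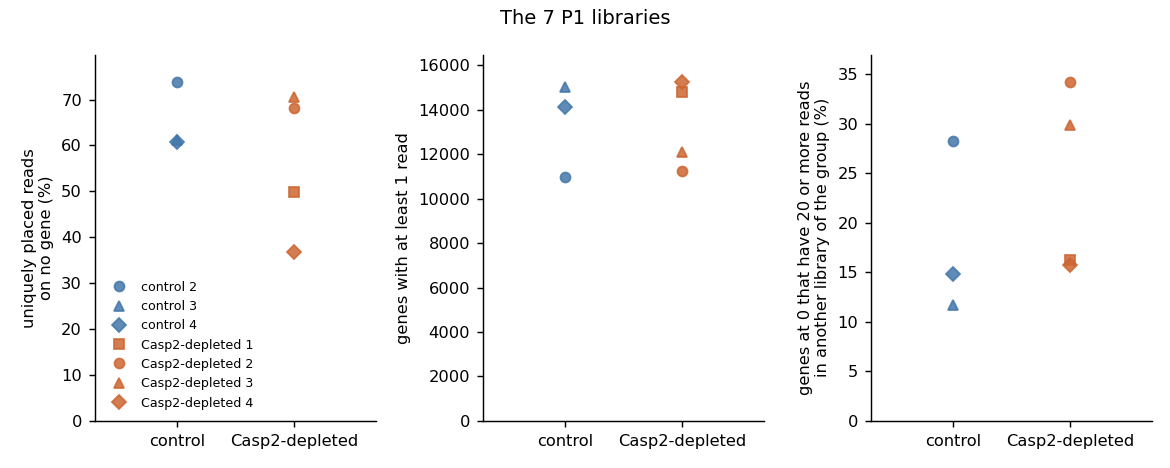
Share of uniquely placed reads on no gene, number of detected genes and share of dropouts in each of the 7 P1 libraries, by genotype (one point per library). Control replicate 2 and Casp2-depleted replicates 2 and 3 lie together in each panel, with 68.2 to 73.9% of reads on no gene, and Casp2-depleted replicates 1 and 4 lie at 49.8 and 36.8%.

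Casp2 (chromosome 6, 42241918 to 42259443, GRCm39) had no read in any of the 7 libraries, nor in the left-out control replicate 1. A count of 0 allows up to 3 reads, or 1.10 to 2.46 CPM (reads on a gene scaled to 1000000 reads on all genes), so the depletion was not detectable at this depth in either group and the labels could not be checked against the targeted gene. The other members of the PIDDosome were measured at low levels. CPM values of single genes are scaled below with the TMM factors of the fit, and log2 fold changes are Casp2-depleted minus control. Ankrd26 had 40.3, 90.2 and 18.3 CPM in control replicates 2 to 4 and 83.0, 93.3, 37.9 and 140.4 CPM in Casp2-depleted replicates 1 to 4, a log2 fold change of 0.84 (SE 1.00). Cradd had 10.8, 94.4 and 161.3 CPM in the controls and 54.8, 99.6, 13.5 and 178.9 CPM in the Casp2-depleted libraries (log2 fold change -0.03, SE 0.84). For both genes the groups overlapped over most of their range. Pidd1 had 7 reads in all in the controls and 20 in the Casp2-depleted libraries, spread over 3 libraries.

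Across 20368 genes tested, no gene passed the threshold between the genotypes at P1 (0% called at an adjusted p below 0.05 and a log2 fold change above 1 in size; edgeR's quasi-likelihood test, Benjamini-Hochberg adjusted). The smallest adjusted p was 0.496, and 1303 genes (6.40%) had an unadjusted p below 0.05, of which 459 (2.25%) were higher and 844 (4.14%) lower in Casp2-depleted libraries. With the replicate number as a block in the fit, 475 genes did so and none was called. Other tools made calls where edgeR made none: limma-voom called 49 genes with TMM and 63 with quantile normalization, and DESeq2 called 105. These lists had 12 genes in common, 9 of them without a read in 1 of the groups, and no gene in common averaged 100 CPM. A difference of the size of the fold threshold could be bounded for few genes. Of 1784 genes with a mean of at least 100 CPM, the 95% interval of the log2 fold change lay within -1 and 1 for 30 genes and within -2 and 2 for 1262. The median standard error was 0.72 in these genes and 2.05 over all genes tested.

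**Figure D2:**
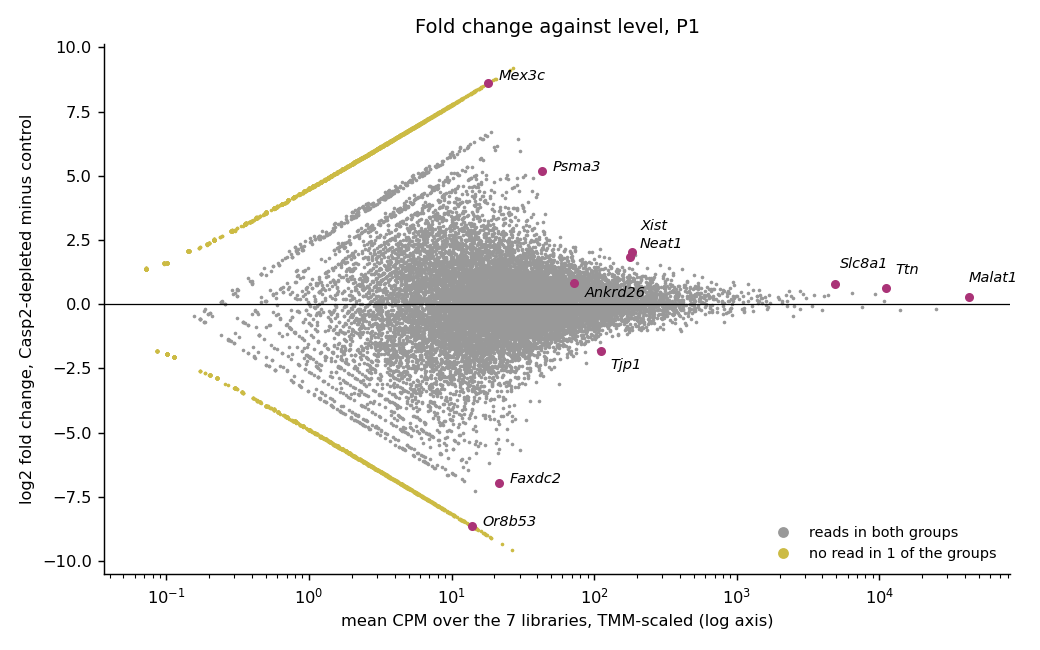
Log2 fold change at P1 (Casp2-depleted minus control) against the mean CPM over the 7 libraries (log axis), one point per gene with reads at P1. No gene was called. Fold changes above 5 in size belong to genes of low mean CPM, many without a read in one of the groups, whose fitted fold changes depend on the prior count, and the most-read genes lie between -0.21 and 0.79.

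The most abundant transcripts were those of working CMs in both genotypes. After the nuclear noncoding RNA Malat1 and the ribosomal RNA locus Rn18s-rs5, the genes with the most reads were Ttn, which encodes the sarcomere spring titin, Tnnt2 (cardiac troponin T), Ryr2 (the calcium release channel of the sarcoplasmic reticulum), Cacna1c (the pore of the L-type calcium channel), Myh6 (alpha myosin heavy chain), Mhrt (a noncoding RNA of the myosin locus), Slc8a1 (the sodium-calcium exchanger) and Palld (an actin-bundling protein). Reads of Rn18s-rs5 may come from many near-identical copies, and those of Mhrt lie opposite a myosin gene, so that without a stated strand setting the 2 cannot be told apart. All 10 overlapped between the genotypes.

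Ttn (chromosome 2, 76534136 to 76812891) had 1810.4, 10420 and 13566 CPM in control replicates 2 to 4 and 10453, 1928, 4486 and 35938 CPM in Casp2-depleted replicates 1 to 4. Its log2 fold change was 0.62 (SE 0.24, unadjusted p = 0.0103, adjusted p = 0.680). Casp2-depleted replicate 4 was the highest library, and without Casp2-depleted replicates 1 and 4 the log2 fold change of Ttn was -1.35 and passed the threshold. That fit was added after the data were seen. Slc8a1 had 1539, 5008 and 3779 CPM in the controls and 9388, 3538, 2833 and 8119 CPM in the Casp2-depleted libraries (log2 fold change 0.79, SE 0.35). For Slc8a1, Casp2-depleted replicates 1 and 4 were above control replicates 2 to 4, and replicates 2 and 3 were not. The left-out control replicate 1 had 12174.9 CPM of Slc8a1, above every Casp2-depleted library. Myh6 had 1499.7, 7424 and 7353 CPM in the controls and 6908, 2890.1, 3022 and 16168 CPM in the Casp2-depleted libraries (log2 fold change 0.42, SE 0.29). Malat1 ranged from 14478 to 60118 CPM in the controls and from 12521 to 91203 CPM in the Casp2-depleted libraries, a log2 fold change of 0.30 (SE 0.20) that was -1.07, past the threshold, without Casp2-depleted replicates 1 and 4. Tnnt2, at -0.21 (SE 0.27), and Ryr2, at 0.14 (SE 0.27), lay closest to no difference among the coding genes of this group.

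**Figure D3:**
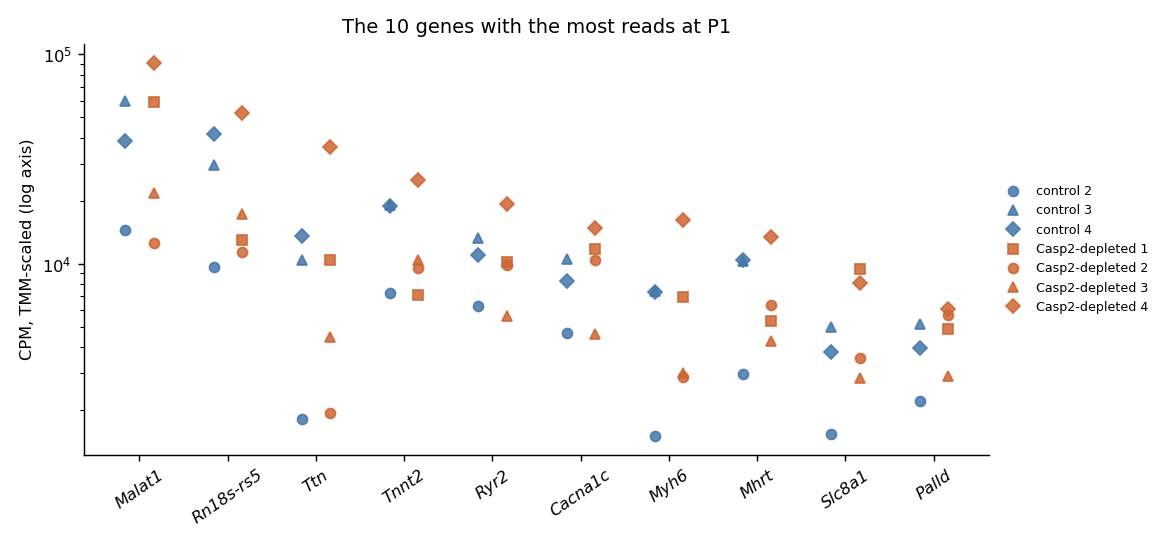
CPM (log axis, TMM-scaled) of the 10 genes with the most reads at P1 in each of the 3 control and 4 Casp2-depleted libraries, one point per library. For every gene the genotypes overlap, and control replicate 2 is the lowest control.

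The same order of libraries was seen beyond these genes. Among the 1784 genes with at least 100 CPM, Casp2-depleted replicates 1 and 4 both lay above replicates 2 and 3 in 741 genes (41.5%) and both below them in 355 (19.9%), and control replicate 2 was the lowest control in 1051 (58.9%) and the highest in 384 (21.5%). Of the 17 genes in this class with an unadjusted p below 0.05 (0.953%), 14 had Casp2-depleted replicates 1 and 4 above replicates 2 and 3. These are the libraries with the lowest share of reads on no gene in their group, and control replicate 2 has the highest in its own. The part of this share in the results below was not tested beyond the fits named there.

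Genes of contraction and energy supply were mostly on the higher side in Casp2-depleted libraries, none of them called. In the sarcomere structure list 29 of 34 genes tested were higher (median log2 fold change 0.46), in calcium handling 25 of 29 (0.45), in fatty acid use 27 of 32 (0.60) and in glucose and glycogen use 26 of 32 (0.48). Of nuclear-encoded subunits of oxidative phosphorylation 56 of 74 were higher (0.77), of the mitochondrial ribosome 44 of 64 (0.89), of the cytosolic ribosome 42 of 69 (0.58) and of RNA splicing 62 of 77 (0.72). Over all genes tested, 52.4% were higher and the median was 0.08. Every one of these 8 medians was below 0 when Casp2-depleted replicates 1 and 4 were left out, from -0.12 in calcium handling to -1.39 in oxidative phosphorylation, where the median of all genes was -0.16. That fit, used here and below, was added after these libraries were seen to lie higher, and is no independent check. With the no-gene share as a covariate, also added afterwards, the 8 medians were -0.01 to -0.41, against -0.13 over all genes. With P1 control replicate 1 included, in the fit of all 24 libraries, they were 0.20 in sarcomere structure and -0.56 in oxidative phosphorylation. Over all fits run, the medians of sarcomere structure, calcium handling, fatty acid use and RNA splicing were above 0 in 22 of 24. For these lists the fits below 0 were those with the no-gene share and without Casp2-depleted replicates 1 and 4. Glucose and glycogen use and oxidative phosphorylation were above 0 in 20 of 24, the cytosolic ribosome in 19 of 24 and the mitochondrial ribosome in 18 of 23. The sign of these medians thus held in most fits but not in all.

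**Figure D4:**
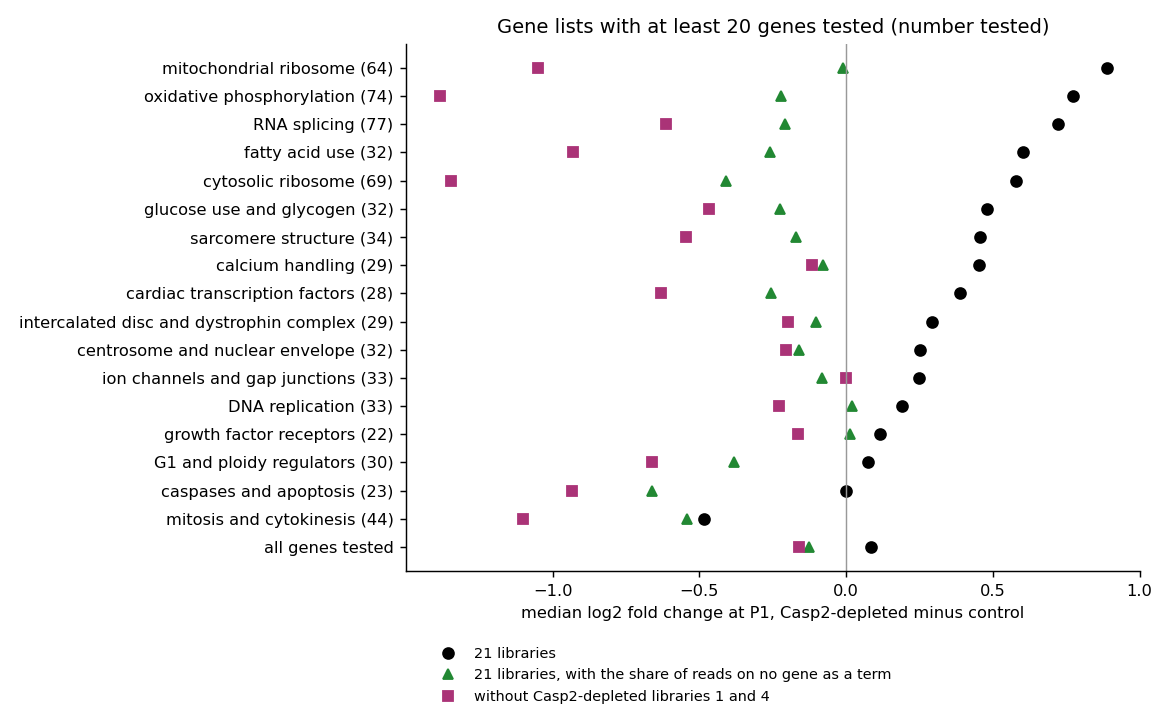
Median log2 fold change at P1 of the 17 gene lists with at least 20 genes tested, and of all genes, in 3 fits. In the fit of 21 libraries (circles) 15 lists lie above 0. With the no-gene share as a covariate (triangles) 2 do, and without Casp2-depleted replicates 1 and 4 (squares) none does. The fits shown as triangles and squares were added after the data were seen.

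Single members show where these medians come from. Acadm, the medium-chain acyl-CoA dehydrogenase of fatty acid oxidation, had 0.602, 5.63 and 13.5 CPM in the controls and 118.2, 0.702, 71.1 and 107.95 CPM in the Casp2-depleted libraries (log2 fold change 3.50, SE 1.32, unadjusted p = 0.00811). Casp2-depleted replicates 1, 3 and 4 were above every control and replicate 2 was not. Fabp3, a fatty acid binding protein, had 43.3 to 270.9 CPM in the controls and 363.0, 89.1, 98.2 and 1003 CPM in the Casp2-depleted libraries (log2 fold change 1.03, SE 0.60). Smyd1, a methyltransferase needed for myofibril assembly, had 10.8, 52.8 and 65.1 CPM in the controls and 126.7, 169.1, 12.9 and 322.3 CPM in the Casp2-depleted libraries (log2 fold change 1.88, SE 0.89). In the lists of small housekeeping genes the leading members rested on 2 or 3 libraries. Rpl36, a protein of the large ribosomal subunit with many pseudogene copies, had no read in the controls. Its 209 reads in Casp2-depleted libraries were all in replicates 1 and 4. Against 3 reads over the control group, which covers counting error only, this was 43.9-fold higher. The 95% interval of its log2 fold change began at 2.36. Ndufa8, a subunit of complex I, had 130 reads in Casp2-depleted replicates 1 and 4 and none in the other 5 libraries, and the splicing factor Srsf7 had 131 in the same 2 libraries. The left-out control replicate 1, in which the study saw signs of cytoplasmic contamination, had 143 reads of Rpl36, 118 of Ndufa8 and 211 of Srsf7. Their absence from controls thus holds for replicates 2 to 4. This left-out library also had 86.4 CPM of Acadm, 324.4 of Ddx5, 326.2 of Smyd1 and 506.6 of Fabp3, each above the other 3 controls. Ddx5, an RNA helicase, had 9.03, 28.2 and 41.3 CPM in the controls and 228.3, 54.7, 0 and 156.9 CPM in the Casp2-depleted libraries.

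Summed over the list, in CPM without TMM scaling, sarcomere genes were at 15885, 36315 and 36738 in control replicates 2 to 4 and 34030, 28592, 22965 and 59284 in Casp2-depleted replicates 1 to 4. Genes of oxidative phosphorylation were at 1176.9, 1869 and 2157.8 CPM in the controls and 3287, 1384.1, 1771.2 and 2978.6 CPM in the Casp2-depleted libraries. In the first list the groups overlapped on both sides. In the second, Casp2-depleted replicates 1 and 4 lay above control replicates 2 to 4, and replicates 2 and 3 within their range. The left-out control replicate 1 was at 7388.4 CPM in the second list, above every Casp2-depleted library. Mitochondrial genes are among those that the study linked to contamination of this library. In RNA of sorted nuclei, fewer nuclei of a kind and less RNA per nucleus cannot be told apart.

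Isoforms of the fetal and the adult sarcomere did not separate the genotypes at P1. CMs exchange slow skeletal troponin I (Tnni1) for cardiac troponin I (Tnni3) and beta for alpha myosin heavy chain after birth. Tnni1 had 609.9, 1267.1 and 916.9 CPM in the controls and 679.3, 926.9, 608.8 and 1486.8 CPM in the Casp2-depleted libraries (log2 fold change -0.01, SE 0.54). Tnni3 had 55.4, 593.0 and 788.9 CPM in the controls and 641.6, 249.8, 207.2 and 1632.2 CPM in the Casp2-depleted libraries (log2 fold change 0.51, SE 0.49). The fetal myosin Myh7 had 73.5 to 174.0 CPM in the controls and 264.5, 38.6, 105.6 and 519.7 CPM in the Casp2-depleted libraries (log2 fold change 1.07, SE 0.92). Of 8 fetal isoform genes 6 were higher (median 0.89) and of 8 adult isoform genes 7 (0.59), so the fetal and the adult genes were on the same side. Both medians were below 0 without Casp2-depleted replicates 1 and 4. The alpha-actinin gene Actn2 and the cardiac actin gene Actc1 had log2 fold changes of 1.14 (SE 0.59) and 1.36 (SE 0.78), and in both control replicate 2 was lowest, at 9.63 and 5.42 CPM. The left-out control replicate 1 had 1254.8 CPM of Actn2 and 1647.7 CPM of Actc1, each above the other controls. Of 13 fetal stress genes tested 11 were higher (median 1.07, and -0.07 without Casp2-depleted replicates 1 and 4). Among them the natriuretic peptide gene Nppa was at 0 to 39.7 CPM in the controls and 0 to 44.0 CPM in the Casp2-depleted libraries. In the left-out control replicate 1 Nppa was at 122.0 CPM.

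Genes of the cell cycle, in which polyploidization would be looked for, gave no call and few reads. In the list of mitosis and cytokinesis 19 of 44 genes tested were higher and 25 lower, with a median log2 fold change of -0.49. This median was below 0 in all 24 fits run, between -1.10 and -0.02. Knl1, a scaffold of the outer kinetochore, had 77.7, 43.7 and 24.6 CPM in the controls and 2.01, 9.82, 0 and 11.5 CPM in the Casp2-depleted libraries (log2 fold change -3.04, SE 1.46, unadjusted p = 0.0375, adjusted p = 0.680). Each Casp2-depleted library lay below each control. Of the 44 genes, 2 did not overlap, Knl1 lower and 1 gene higher, where 3.40% of all genes tested did not overlap. In edgeR's quasi-likelihood test 4 of the 44 had an unadjusted p below 0.05, 2 higher and 2 lower. This was 9.09%, against 6.40% of all genes tested. Cenpa, the centromeric histone H3 variant, had no read in the controls and 135 in Casp2-depleted replicates 1 and 4, but 179 in the left-out control replicate 1. Mad2l1, of the spindle checkpoint, had 17 reads in the controls and none in the Casp2-depleted libraries. Summed over the list, mitosis genes were at 1802.3, 1461.7 and 1269.6 CPM in the controls and 1220.5, 1429.7, 1084.7 and 830.6 CPM in the Casp2-depleted libraries, and the groups overlapped. In DNA replication 20 of 33 genes were higher and 11 lower (median 0.19), in G1 and ploidy regulators 16 and 12 of 30 (0.07), and in centrosome and nuclear envelope genes 20 and 10 of 32 (0.25).

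The p53 pathway could be read only in part. Cdkn1a had no read in the 7 libraries or in the left-out control replicate 1. Of 19 p53 pathway genes tested 12 were higher and 6 lower (median 0.59, and -0.81 without Casp2-depleted replicates 1 and 4). Zmat3, a p53 target that acts on splicing, had 102 reads in 3 Casp2-depleted libraries and none in control replicates 2 to 4, at least 21.4-fold higher, but 32.6 CPM in the left-out control replicate 1. Rrm2b, a p53-induced subunit of ribonucleotide reductase, had 94 reads in the controls, most of them in replicate 2 at 53.6 CPM, and 2 reads in the Casp2-depleted libraries. The list of caspases and apoptosis held 8 higher and 10 lower genes of 23 tested. Casp8, the initiator caspase of death receptors, had 51 reads in Casp2-depleted libraries, none in control replicates 2 to 4 and 139 in the left-out control replicate 1, and Casp12 had 59 reads in control replicate 2 alone.

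Of the 12 genes that the study names at P7, 5 were higher, 4 lower and 3, Cdkn1a, Hes1 and Lin37, had no read in the 7 libraries. The left-out control replicate 1 had 157 reads of Hes1 and 20 of Lin37. None had reads in all 7 libraries. E2f8, an atypical E2F that represses E2F target genes, and Foxm1, which activates genes of mitosis, had 21 reads in control replicate 4 against 8 in Casp2-depleted replicate 4, and 0 against 4 reads. Kif18a, a mitotic kinesin, was at 31.9, 7.75 and 11.1 CPM in the controls and 12.1, 0, 0.677 and 23.5 CPM in the Casp2-depleted libraries. Sqle, an enzyme of sterol synthesis, had 7 and 6 reads. Trim39 had 2 reads in the controls, 55 in the Casp2-depleted libraries and 76 in the left-out control replicate 1. At this depth a difference in these genes was not detectable.

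In 693 genes (3.40% of those tested) the 4 Casp2-depleted and the 3 control libraries did not overlap, 231 (1.13%) higher and 462 (2.27%) lower in Casp2-depleted libraries. With the left-out control replicate 1 taken in, 81 (35.1%) of the 231 and 67 (14.5%) of the 462 still did not overlap, in CPM without TMM scaling, a scale on which the 7 libraries alone left 190 and 391. The genes below are those with the smallest unadjusted p among them at a mean of at least 10 CPM, and none passed the threshold (adjusted p = 0.680 for each). Psma3 (chromosome 12, 71021279 to 71043849), an alpha subunit of the proteasome, had 0, 2.82 and 3.18 CPM in the controls and 52.8, 50.5, 132.0 and 61.0 CPM in the Casp2-depleted libraries (log2 fold change 5.18, SE 1.71, unadjusted p = 0.00250). The left-out control replicate 1 had 116.6 CPM of Psma3, within the range of the Casp2-depleted libraries. Lrrc8b, a subunit of volume-regulated anion channels, had 0, 0.704 and 5.56 CPM in the controls and 29.2, 119.3, 40.0 and 66.5 CPM in the Casp2-depleted libraries. Klhl26, of a family of ubiquitin ligase adaptors, had 8 reads in the 3 controls and 21.7 to 80.5 CPM in the Casp2-depleted libraries. Reads in all 4 Casp2-depleted libraries followed from the choice of genes whose groups do not overlap.

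Atp1b4, a muscle protein of the inner nuclear membrane in mammals, had no read in the controls and 13.1, 16.1, 64.3 and 16.99 CPM in the Casp2-depleted libraries. Against 3 reads over the control group, which covers counting error only, this was 37.4-fold higher. The 95% interval of its log2 fold change, from the spread between pools, began at 2.17. Atp1b4 was also called by both limma-voom fits and by DESeq2. Mex3c, an RNA-binding ubiquitin ligase, had no read in the controls and 9.995 to 51.3 CPM in the Casp2-depleted libraries. This was 45.1-fold higher against 3 reads over the control group, and the 95% interval of its log2 fold change began at 2.49. Depdc7, Lrrc17 and Dbnl, with 146, 125 and 133 reads in Casp2-depleted libraries and none in the controls, had the same form. Of the genes named on this side, Atp1b4, Lrrc8b and Lrrc17 had no read in the left-out control replicate 1, which had 1 read of Mex3c, 44 of Klhl26, 17 of Depdc7 and 68 of Dbnl.

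On the lower side, Faxdc2 (chromosome 11, 57954378 to 57983960), a membrane fatty acid hydroxylase family member, had 31.3, 61.3 and 57.2 CPM in the controls and 0, 0, 1.35 and 0 CPM in the Casp2-depleted libraries (log2 fold change -6.96, SE 2.17, unadjusted p = 0.00131). Ssr2, a subunit of the translocon-associated protein complex, had 75.3, 8.45 and 35.8 CPM in the controls and no read in the Casp2-depleted libraries, at least 96.4-fold lower. Haao, an enzyme of tryptophan breakdown, had 129 reads in the controls and none in the Casp2-depleted libraries. The other genes with the smallest p on this side are not known for expression in CMs. Or8b53, an olfactory receptor gene of a family of close copies, had 44.0, 31.0 and 22.2 CPM in the controls and no read in the Casp2-depleted libraries. Col2a1, the collagen of cartilage, had 193 control reads, Mc2r, the corticotropin receptor, 166, Pmel, a pigment cell protein, 133, Timd4, a macrophage receptor, 138, Cd300e, a myeloid receptor, 121, and Klri2, a natural killer cell receptor, 118, each against none in the Casp2-depleted libraries. Of the 10 genes on the lower side, 9 had no read in the left-out control replicate 1 either and so overlapped with it, and Ssr2 had 36.9 CPM. Faxdc2, Haao, Or8b53, Cd300e and Klri2 were also called by both limma-voom fits and by DESeq2. Reads were counted over whole genes, so reads within introns of these genes are included.

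**Figure D5:**
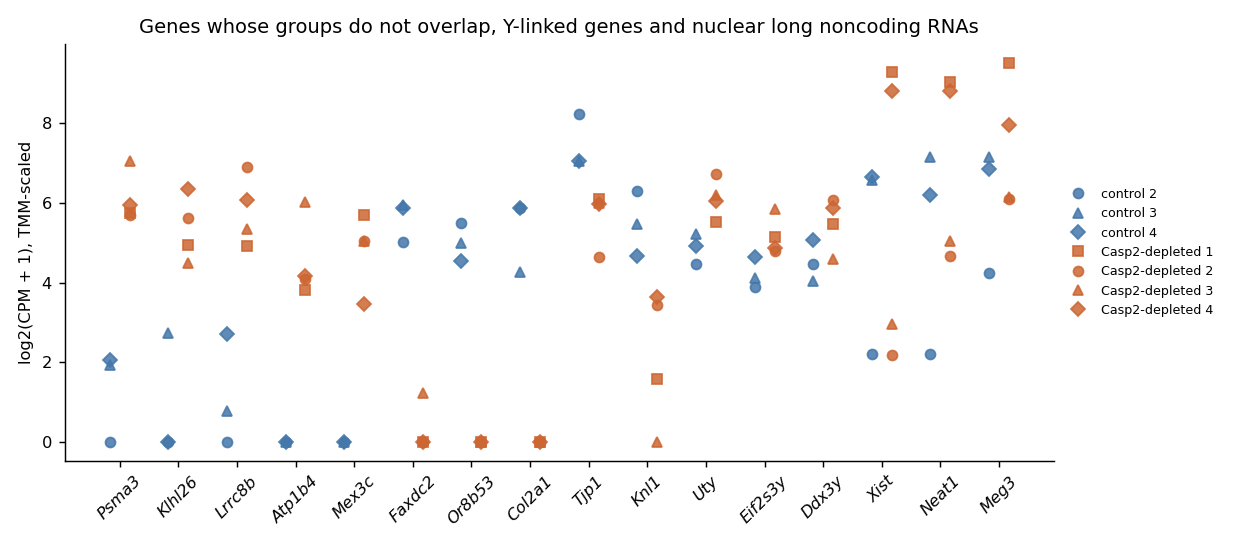
Log2(CPM + 1) of 16 genes in each of the 7 P1 libraries (one point per library, TMM-scaled). From Psma3 to Knl1, Uty and Eif2s3y the genotypes do not overlap, in Ddx3y, Xist, Neat1 and Meg3 they do, and Xist, Neat1 and Meg3 are highest in Casp2-depleted replicates 1 and 4.

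At a higher level, Tjp1 (chromosome 7, 64945898 to 65177529), the scaffold ZO-1 of tight and gap junctions, was one of 51 genes that did not overlap among the 1784 with at least 100 CPM (2.86%). It had 300.4, 132.4 and 132.7 CPM in the controls and 67.4, 23.9, 63.0 and 61.5 CPM in the Casp2-depleted libraries, a log2 fold change of -1.80 (SE 0.77, unadjusted p = 0.0192, adjusted p = 0.680). The left-out control replicate 1 had 25.4 CPM of Tjp1, within the range of the Casp2-depleted libraries, so that the groups overlapped with it. In the whole list of the intercalated disc and dystrophin complex, 23 of 29 genes were higher and 6, Tjp1 among them, lower (median 0.29, and -0.20 without Casp2-depleted replicates 1 and 4). Jup, the junctional plakoglobin, had 10.2, 42.3 and 11.9 CPM in the controls and 80.4, 179.6, 33.9 and 72.0 CPM in the Casp2-depleted libraries (log2 fold change 2.09, SE 1.13). The left-out control replicate 1 had 78.8 CPM of Jup, within the range of the Casp2-depleted libraries. The potassium channel gene Kcnj5, whose product carries the acetylcholine-activated current, had 5 reads in the controls and 77.9, 5.61, 9.48 and 72.5 CPM in the Casp2-depleted libraries, without overlap, but 52.3 CPM in the left-out control replicate 1.

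Noncoding RNAs of the nucleus varied widely within the genotypes. Xist, the RNA that silences 1 X chromosome in females, had 3.61, 94.4 and 100.1 CPM in the controls and 630.5, 3.51, 6.77 and 451.8 CPM in the Casp2-depleted libraries (log2 fold change 2.05, SE 0.76, unadjusted p = 0.00737). Neat1, the scaffold of paraspeckles, followed with 3.61, 141.6 and 72.3 CPM in the controls and 526.9, 24.6, 31.8 and 451.8 CPM in the Casp2-depleted libraries (log2 fold change 1.84, SE 0.65, unadjusted p = 0.00450, the smallest among genes of at least 100 CPM). The imprinted RNA Meg3 and the imprinted adaptor gene Grb10 had log2 fold changes of 1.61 (SE 0.82) and 1.90 (SE 0.89). Casp2-depleted replicates 1 and 4 were the highest of the 7 libraries for each of these 4 genes. The left-out control replicate 1 was above both for Xist (1340.2 CPM), Grb10 (957.8) and Meg3 (797.4), and below both for Neat1 (426.5).

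The Y-linked genes gave a check of the sex of the pools. Uty had 21.1, 36.6 and 29.4 CPM in the controls and 44.7, 106.0, 73.1 and 65.0 CPM in the Casp2-depleted libraries, and Eif2s3y had 13.8, 16.2 and 23.8 CPM against 34.2, 26.7, 56.2 and 28.0 CPM. Both did not overlap, with log2 fold changes of 1.31 (SE 1.21) and 1.01 (SE 2.22). All 4 Y-linked genes tested were higher (median 1.03), and the median lay between 0.98 and 1.45 in the 23 fits that had these genes. The left-out control replicate 1 had no read of the 4 genes. Summed over the 4 genes, in CPM without TMM scaling, Casp2-depleted replicates 1 to 4 were at 118.8, 230.4, 240.9 and 132.4. Replicates 1 and 4, with most of the Xist reads, thus had the lower sums, though Eif2s3y alone was lowest in replicate 2. In control replicates 2 to 4 the sum was 74.8, 86.8 and 90.0 CPM, and both it and Xist were lowest in replicate 2. The part of sex composition in the results was not tested.

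Markers of other heart cells were at low levels in both genotypes. Summed over 10 markers, CM genes were at 23424 to 54364 CPM (without TMM scaling) in the controls and 30447 to 79989 in the Casp2-depleted libraries. Fibroblast markers were at 187.8 to 197.8 and 75.4 to 349.1 CPM, endothelial markers 288.2 to 546.6 and 206.4 to 632.5, mural markers 350.4 to 459.8 and 400.6 to 536.8, and macrophage markers 151.5 to 189.8 and 84.3 to 339.5. Erythroid markers were at 5.8 to 38.4 and 0 to 68.6 CPM, epicardial markers 44.0 to 86.8 and 9.0 to 90.9, and Schwann cell markers 23.3 to 134.2 and 16.5 to 192.2. Egfl7, Tagln, Cd68, C1qa, C1qb, Lyz2 and Slc4a1 had no read in the 7 libraries. No list of these cells separated the genotypes. The left-out control replicate 1 was above each of the 7 libraries in fibroblast (551.6 CPM), mural (739.8) and erythroid markers (209.3). It was below each of them in macrophage markers (39.0). Mitochondrially encoded RNA, a sign of cytoplasm, was 0.139, 0.401 and 0.315% of reads on genes in the controls and 0.293, 0.213, 0.115 and 0.434% in the Casp2-depleted libraries (exact permutation test, two-sided, p = 0.857), and 1.88% in the left-out control replicate 1.

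Whether the genotype effect at P1 differed from that at later days was tested within the same fit. Pools held 15 hearts at P1, 6 at P7 and 2 at P14, so pool size changed with the day. The P14 libraries in the fit had 7628 to 13651 detected genes. The part of pool size and dropouts in these differences was not tested. Against P7 no gene passed (0% called), with 1298 genes (6.37%) at an unadjusted p below 0.05, 720 (3.53%) of them higher and 578 (2.84%) lower, and a smallest adjusted p of 0.606 in edgeR's quasi-likelihood test, where limma-voom called 4 genes and DESeq2 66. With the replicate number as a block Ttn was called (difference 1.21, adjusted p = 0.0429 in edgeR's quasi-likelihood test), and so it was without P1 control replicate 4 or without P1 Casp2-depleted replicate 2. Against P14, 25 genes passed (0.123%), of which 24 (0.118%) had a higher and 1 (0.00491%), Tnni1, a lower log2 fold change at P1, and 2308 genes (11.3%) had an unadjusted p below 0.05, 1290 (6.33%) of them higher and 1018 (5%) lower. At P1 none of the 25 was called, and at P14 most had reads in the controls and few or none in the Casp2-depleted libraries. All P14 control reads of Lig1, Spaca6, Myoz2, Hnrnpl, Hopx, Rnpc3 and Zranb2 were in replicate 1. Cdc37l1, of the CDC37 family of kinase co-chaperones, had 834 and 2597 reads in the P1 groups (log2 fold change 0.68, SE 0.62), 603 in the P14 controls, of which 553 were in 1 library, and none in the P14 Casp2-depleted libraries, a difference of 11.5 (SE 1.35) on the log2 scale of the fit. Tnni1 had a log2 fold change of -0.01 at P1 and no read in the P14 controls and 68 in the P14 Casp2-depleted libraries, a difference of -7.61 (SE 1.24). Acadm and Neat1 were also in this group, with differences of 9.04 (SE 2.04) and 4.04 (SE 0.94). The count was 3 with the replicate number as a block and 3 with the no-gene share as a covariate, Cdc37l1, Tnni1 and Ivns1abp in both. It was 4, 8, 10, 38, 48 and 5 without P1 control replicates 2 and 4 and Casp2-depleted replicates 1, 2, 3 and 4, and 15, 161, 55, 107 and 9 without P14 control replicates 1, 2 and 4 and Casp2-depleted replicates 2 and 4. Of the 25 genes, Cdc37l1 was called in each of the 13 fits that left out a library, and Tnni1 and Malat1 were called in 12 of them.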

How the data were processed

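RNA of PCM1-sorted CM nuclei was measured with QuantSeq 3′ low-input libraries. The authors trimmed the reads with cutadapt 4.0 after FastQC 0.11.8, aligned them with STAR 2.6.1e to GRCm39 (Ensembl annotation) and counted them with HTSeq 2.0.3 over the full gene, introns included. The deposited values are raw counts per gene for 56923 identifiers. Strand setting and molecular identifiers are not given in the sources used here, so amplified copies may be counted more than once, and intervals of shares and limits from a count of 0 cover counting error only, while intervals of log2 fold changes rest on the spread between pools. Gene names and coordinates are from GENCODE vM39 on GRCm39, which named 56236 identifiers with 99.5% of the reads. Counting lines that name no gene stayed out of library sizes. In the 7 libraries 36.8 to 73.9% of uniquely placed reads lay on no gene.

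The P1 genotypes were compared with edgeR 4.0.16 in R 4.3.3: TMM factors, 6 group means over the 21 libraries that the study kept (15 residual degrees of freedom), the quasi-likelihood F-test, on genes that had 10 or more reads in all and were seen in 3 or more libraries. Calls needed an adjusted p (Benjamini-Hochberg) below 0.05 and a log2 fold change above 1 in size, the thresholds of the study. The study used limma, which was run as an alternative because counts call for a count model. A standard error is the log2 fold change over the root of F. The fit kept edgeR's default prior count. A prior count of 2 was used only for the log CPM behind the correlations of same-numbered libraries. Gene lists were described by counts and medians without a test. Values that exist once in each library were compared by exact permutation tests in scipy 1.17.1. Nothing says whether pools came from separate litters, so p-values measure the spread between pools. The test was tried on simulated counts with 200 changed genes. Of changed genes with at least 100 CPM it called 0 at 2-fold, 0 at 4-fold and 166 at 16-fold. Of those drawn from all genes tested it called 0, 0 and 17. A count of 0 called genes thus leaves 4-fold changes undetected.

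Named genes are the PIDDosome genes, the 12 genes the study names at P7, of the genes whose groups do not overlap the 10 higher and 10 lower with the smallest unadjusted p (Gm, Rik and unnamed genes left out, a mean of at least 10 CPM), up to 3 genes per list by p, the 10 with the most reads, and markers. The members, lists and tests were chosen with earlier results of these data known.

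The replicate number is called a batch in the deposited names. The deviations of same-numbered P1 control and Casp2-depleted libraries from their group means correlated at 0.106, -0.0734 and 0.140 over 11778 genes, and the number was used as a block in an alternative. The other alternatives were limma-voom (limma 3.58.1) with TMM or quantile normalization, DESeq2 1.42.0, RLE factors, filterByExpr, no filter, all 24 libraries, 7 or 8 P1 libraries alone, libraries thinned to 891817 reads and each library left out. The no-gene share as a covariate, a minimum of 50 CPM, robust estimation, the fit without Casp2-depleted replicates 1 and 4, the groups' overlap with P1 control replicate 1 taken in, and left-out libraries for the differences between days were added after the data were seen. Some genes are not reported here.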

Additional observations from a re-analysis of the deposited data

Results flagged for a closer look

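Among the 4 Casp2-depleted libraries at P1, 9 of 68 values tested had 1 library far from the other 3, by a gap divided by the range above 0.829. This limit is meant for independent normal values, which these CPM are not, so the count cannot be set against chance. The lists of adult sarcomere isoforms and CM markers share genes. The gap ratio was 0.909 for the summed CPM of adult sarcomere isoforms, 0.838 for CM markers and 0.857 for Rn18s-rs5, with replicate 4 above the others in each. It was 0.960 for imprinted growth genes, where replicate 3 was lowest at 4699.2 CPM. It was 0.849 for Gas5, with 9.995 CPM in replicate 4. For Bin1, Foxm1, E2f8 and Sqle it was 1, which follows from reads in a single Casp2-depleted library.

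The genotype effect at P1 differed from that at P14 in 25 genes by the interaction term of edgeR's fit, and the values given for 24 of them are differences of log2 fold changes. Many of these genes had no read in a P14 group, so the size rests on the prior count. For genes of muscle and metabolism the difference was -7.61 for Tnni1, 11.0 for Myoz2, 9.04 for Acadm and 10.4 for Hopx. For nuclear noncoding and RNA-processing genes it was 2.04 for Malat1, 4.04 for Neat1, 10.3 for Hnrnpl, 5.73 for Rsrp1, 6.53 for Zranb2 and 7.21 for Rnpc3. For genes of DNA repair and ubiquitin ligation it was 7.88 for Lig1, 12.02 for Fan1 and 9.85 for Cul4a. For the remaining genes it was 3.00 for ENSMUSG00000115610, which has no name in the annotation, 11.5 for Cdc37l1, 5.55 for 5430431A17Rik, 7.45 for Spaca6, 7.86 for Man2a2, 8.50 for Pdgfa, 10.03 for Abcc5, 9.44 for Ptp4a2, 16.2 for Arl2bp, 6.20 for Ankrd10 and 7.97 for Nup214.

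In P1 control replicate 1, which was left out of the main fit, 1.88% of reads on genes lay on mitochondrially encoded genes (95% Wilson interval 1.86 to 1.89), above the 0.139 to 0.401% of the other controls. This library had no read on the 4 Y-linked genes and 1340.2 CPM of Xist.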

How the results depend on the processing

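The count of 0 called genes at P1 stayed 0 in all edgeR fits of the alternatives except 1. It was 4 without Casp2-depleted replicates 1 and 4 together (Atp5me, Malat1, Ttn and Ush1c, all lower), and 49, 63 and 105 with limma-voom and TMM, limma-voom and quantile normalization, and DESeq2. Without Casp2-depleted replicates 1 and 4 the log2 fold changes of Ttn and Malat1 reversed to -1.35 and -1.07. These libraries were chosen after they were seen to lie higher, so that fit is no independent check. By the adjusted p alone 1 gene passed without Casp2-depleted replicate 4, and none in the fit of 21 libraries. For the difference from P7 the count was 4 with limma-voom (Atp1b4, Mtfr1l, Gm27151 and Gm29605), 66 with DESeq2, 1 with the replicate block, and 0 to 1 when single libraries were left out, the 1 without P1 control replicate 4 or Casp2-depleted replicate 2. The gene was Ttn in these 3 fits. For the difference from P14 it was 403 with DESeq2, 24 with limma-voom of which 1 was among the 25, 10 with all 24 libraries, 3 with the replicate block, 3 with the no-gene share as a covariate (Cdc37l1, Tnni1 and Ivns1abp in both), and 4 to 161 with single libraries left out. Same-numbered P1 libraries did not all deviate together, and the block moved the genes at an unadjusted p below 0.05 from 1303 to 475 in 21 libraries and to 148 in the 6 libraries of replicates 2, 3 and 4, with none called in either. Of the 3 calls against P14 with the block, 2 were among the 25 (Cdc37l1 and Tnni1), and the rest of the 25 were not called.

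Of 17 lists with at least 20 genes tested, 14 had a median above that of all genes. This was 6 in the fit of 8 P1 libraries, 6 with the no-gene share as a covariate and 2 without Casp2-depleted replicates 1 and 4. The median of all genes moved from 0.08 to 0.29 and 0.25 without control replicates 3 and 4, and to -0.09 with limma-voom. Of 172 named genes the sign changed in 45 of 171 without Casp2-depleted replicates 1 and 4, in 30 with all 24 libraries, in 27 with the no-gene share as a covariate, and in 0 to 28 in the other fits. With P1 control replicate 1 included, the difference in the share of reads on no gene moved from -8.89 to 5.12 percentage points and that in mitochondrial reads from -0.0212 to -0.420. The cause of these moves was not tested. Depth limits every gene read in few libraries.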

Other observations

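Of the 17 genes with at least 100 CPM and an unadjusted p below 0.05, 9 had not been selected by the rule for named genes, and the 8 given here were chosen after their values were seen. None passed the threshold (adjusted p = 0.680 in edgeR's quasi-likelihood test). Nedd4, a ubiquitin ligase, had 33.7, 183.1 and 206.6 CPM in control replicates 2 to 4 and 676.3, 221.7, 216.0 and 489.8 CPM in Casp2-depleted replicates 1 to 4, so that the groups did not overlap (log2 fold change 1.51, SE 0.66). Sulf2, an extracellular sulfatase acting on heparan sulfate, had 0, 4.93 and 106.5 CPM in the controls and 189.6, 156.5, 146.3 and 166.4 CPM in the Casp2-depleted libraries, also without overlap (log2 fold change 2.15, SE 0.96). Of the 25 higher genes without overlap at 100 CPM or more, these 2 included, none kept this with P1 control replicate 1 taken in (CPM without TMM scaling). Sulf2 was high in all 4 Casp2-depleted libraries, replicates 2 and 3 included. Slc12a1, a sodium-potassium-chloride cotransporter known from the kidney, had 272.7, 54.9 and 255.0 CPM in the controls and 31.2, 95.4, 59.6 and 33.0 CPM in the Casp2-depleted libraries (log2 fold change -1.83, SE 0.81). Wnk1, Filip1l, Srl, Lrrfip2 and Ivns1abp had log2 fold changes of 1.40, 1.36, 1.23, 1.60 and 1.40. For each of these 5 genes Casp2-depleted replicates 1 and 4 were the highest of the 7 libraries.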
